A study of Mus musculus with 9 samples.

Results

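Nucleotide synthesis and salvage were followed through 32 genes, chosen by gene symbol from the pathway, all of which were found among the 20732 genes of the count table. The RNA came from ILC2s (group 2 innate lymphoid cells), tissue lymphocytes without antigen receptors that secrete type 2 cytokines, taken from the pancreas of C57BL6/J mice. The control group, titled naive in the sample names and treated with PBS, has 4 libraries. The treated group has 5 libraries from mice given 200 ng of IL-33, the cytokine that activates ILC2s through the receptor ST2, on days 0 and 1, and organs of both groups were collected on day 5. The series text states 5 mice with PBS and 4 with IL-33, and the sample labels, which give the reverse, were followed. Ages are not stated. Whether every library stands for its own mouse is not stated either, and the p-values therefore reflect only how these libraries vary, which may be technical. Cells were gated on CD45 and KLRG1, without CD3, B220 or lineage markers.

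Cells obtain nucleotides by building the purine and pyrimidine rings from small precursors and by salvaging free bases and nucleosides. Ribonucleotide reductase then removes an oxygen from ribonucleoside diphosphates to give the deoxynucleotides (dNTPs) needed to copy DNA, and thymidylate is made separately from dUMP. Resting lymphocytes keep dNTP pools small, partly through the triphosphohydrolase SAMHD1, and several enzymes of dNTP supply are made mainly in S phase. The members were therefore grouped as dNTP supply (10 genes), pyrimidine synthesis (5), purine synthesis (12), and nucleotide kinases with base salvage (5).

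Total counts per library ran from 14216976 to 21020023. Counts of a member in 1 library ran from 35 (Rrm2b) to 8244 (Samhd1), and all 32 members passed the filter on low counts. Levels are CPM, read counts relative to library size, scaled with edgeR's trimmed mean of M values (TMM), and changes are log2 fold changes of IL-33 over PBS. A gene was called when its Benjamini-Hochberg adjusted p in edgeR's quasi-likelihood test over 14405 genes was below 0.05. The ILC2 markers Gata3 (2988 to 6803 CPM), Il1rl1 (622 to 1428 CPM) and Klrg1 (593 to 1680 CPM) were present in every library. Of the 12 ILC2 markers listed, Klrg1 (log2 change 1.01, edgeR adjusted p = 7.9e-04), Il5 (2.23, 1.2e-04) and Il13 (4.14, 1.2e-04) were called higher. Icos (-1.50, 8.2e-04), Il7r (-1.28, 0.0031) and Il2ra (-0.55, 0.0373) were called lower, and the others were not called. The 7 genes of the T cell receptor complex summed to 951 to 1075 CPM with PBS and 777 to 1024 CPM with IL-33. Of these Cd3d, Cd3e and Trac stayed at or below 9.32 CPM, while Cd3g (221 to 342 CPM), Trbc1 (187 to 373 CPM) and Trbc2 (312 to 424 CPM) were present in every library. Trbc1 was called lower with IL-33 (log2 change -0.55, edgeR adjusted p = 0.0107), and the others of this list were not called. PBS replicate 4 stood apart, with 38.1% of its counts in 19 acinar genes against 0.118 to 11% in the other 8 libraries. As TMM-scaled CPM these sums were 717550 against 1011 to 111006. The TMM factor of PBS replicate 4 was 0.532, so its scaled CPM exceed its share of counts. Those of the others lay between 0.99 and 1.17.

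Transcripts of 8 of the 10 genes of dNTP supply were higher after IL-33, all but Rrm2b and Samhd1, while 11 of the 12 genes of purine synthesis did not pass the test. Of the 32 members 13 were called higher (40.6%), against 13.7% of all genes tested, and 0 were called lower, against 11.6% of all genes. At an unadjusted p below 0.05 the members Rrm2b, Samhd1 and Dhodh had negative changes. DESeq2 called 13 members higher and 2 lower, the latter Samhd1 and Dhodh. Over all genes DESeq2 called 2588 lower, against 1666 in edgeR's test, and it also called more genes higher than edgeR did. The shares of all genes given above are edgeR's and are no measure for the calls of DESeq2. All 5 IL-33 libraries lay above all 4 PBS libraries for 12 members (37.5%), against 15.3% of all genes, and below them for 0 members, against 10.8%. The median log2 change was 0.57 over the members and -0.05 over all genes tested. By role it was 2.13 for dNTP supply, 0.75 for kinases and base salvage, 0.48 for pyrimidine synthesis and 0.07 for purine synthesis. In bulk RNA, fewer cells of a type and less RNA per cell cannot be told apart.

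**Figure D1:**
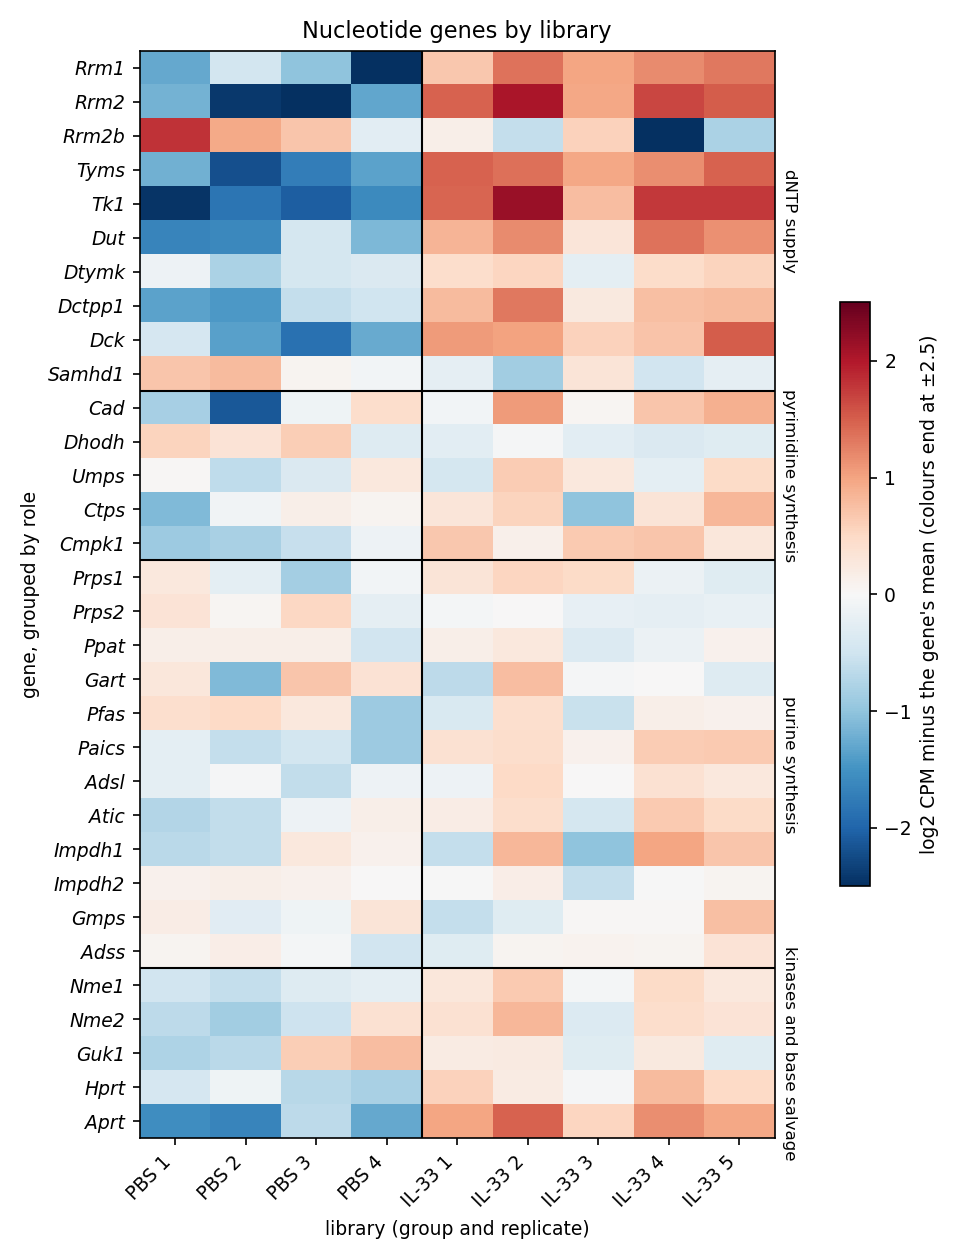
Each row is 1 of the 32 genes and each column 1 library, and colour gives log2 CPM minus the gene's mean over the 9 libraries, with colours ending at 2.5 in either direction. For 7 of the 10 dNTP rows every IL-33 cell is redder than every PBS cell, the others being Rrm2b, Samhd1 and Dtymk, and among the 12 purine rows this holds for Paics alone.

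Upstream sequence is shown for the 4 genes of dNTP supply that rose and hold a CCAAT box, the 5-base core bound by the factor NF-Y, genes chosen after their values were seen. CCAAT, on either strand, was searched in the 250 bases before and 50 after the RefSeq start (GRCm38.p6). These 4 are 4 of the 9 dNTP genes with a promoter in the table (44.4%), against 41.1% of all 27025 genes there. The other 5, Dck, Dut, Samhd1, Tk1 and Tyms, hold none. The stretches run 5′ to 3′ on the gene's strand and stop before the first base of an annotated exon, and capitals mark CCAAT or its reverse complement. They lie at chr12:24708004-24708240 (Rrm2, plus strand), chr7:102441445-102441694 (Rrm1, plus), chr7:127260710-127260917 (Dctpp1, minus) and chr1:93801935-93802184 (Dtymk, minus).
Rrm2: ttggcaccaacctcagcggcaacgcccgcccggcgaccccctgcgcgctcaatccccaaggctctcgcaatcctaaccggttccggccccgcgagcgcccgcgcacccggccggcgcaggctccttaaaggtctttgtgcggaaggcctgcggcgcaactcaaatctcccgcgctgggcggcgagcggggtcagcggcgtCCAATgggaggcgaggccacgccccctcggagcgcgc
Rrm1: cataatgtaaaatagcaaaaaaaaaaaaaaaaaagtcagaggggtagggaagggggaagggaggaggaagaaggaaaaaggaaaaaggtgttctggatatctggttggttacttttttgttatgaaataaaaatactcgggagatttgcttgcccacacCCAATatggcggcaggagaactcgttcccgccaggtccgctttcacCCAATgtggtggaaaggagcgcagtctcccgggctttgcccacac
Dctpp1: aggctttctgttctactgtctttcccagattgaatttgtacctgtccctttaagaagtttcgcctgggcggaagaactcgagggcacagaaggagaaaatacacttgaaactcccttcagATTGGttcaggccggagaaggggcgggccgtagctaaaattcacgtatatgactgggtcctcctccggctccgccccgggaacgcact
Dtymk: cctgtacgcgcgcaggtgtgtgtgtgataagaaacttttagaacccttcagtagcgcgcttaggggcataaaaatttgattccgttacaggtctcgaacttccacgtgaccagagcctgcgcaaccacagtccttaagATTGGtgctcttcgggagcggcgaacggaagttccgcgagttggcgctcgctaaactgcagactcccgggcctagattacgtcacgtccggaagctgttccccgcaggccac
Rrm1 holds 2 boxes and the other 3 hold 1 each in the stretch shown. A second motif, the E2F core written as TTTGGCGC, TTTCCCGC, TTTGCCGC, TTTCGCGC, TTTGGCGG, TTTCCCGG, TTTGCCGG or TTTCGCGG on either strand, was found in 0 of the 9 dNTP promoters and in 5.14% of all genes' promoters. Among the 29 members in the table only Ppat and Prps2 hold it, and neither was called. A match is a description of letters, and a missing match says only that these letters are not in this window.

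The ribonucleotide reductase genes opened the dNTP group. Rrm2 (chromosome 12, 24708241 to 24714146), which encodes the small subunit made in S phase, was at 12.6, 5.36, 4.15 and 11.6 CPM in the PBS libraries. With IL-33 it was at 78.9, 117, 56, 90.9 and 81.8 CPM. The groups did not overlap, and the log2 change was 3.34 ± 0.39 (SE, edgeR adjusted p = 3.9e-04), or 10.1-fold. Rrm1 (chromosome 7, 102441695 to 102469771), the large catalytic subunit, was at 36.2, 63.8, 43.5 and 13.1 CPM with PBS and at 139.9, 224, 175, 199 and 218 CPM with IL-33. The lowest Rrm1 value was that of PBS replicate 4, and the log2 change was 2.29 ± 0.38 (SE, edgeR adjusted p = 0.0026).

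Rrm2b, the alternative small subunit induced by p53 and used outside S phase, did not follow. It was at 33.1, 18.2, 15.4 and 7.92 CPM with PBS and at 10.5, 6.29, 14.2, 1.67 and 5.46 CPM with IL-33, so the groups overlapped. Its log2 change was -1.29, with a 95% interval from -2.58 to -0.01 (edgeR adjusted p = 0.132). Within libraries, the log2 ratio of Rrm2 to Rrm2b counts averaged -1.12 ± 1.13 in the PBS libraries (SD, n = 4) and 3.75 ± 1.42 in the IL-33 libraries (SD, n = 5). The ranges, -1.88 to 0.55 and 1.98 to 5.75, did not overlap. The difference of 4.87 had an exact permutation p of 0.0159 (two-sided), the smallest this design can give, and an adjusted p of 0.0635 over the 4 pairs of related genes tested.

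Transcripts for thymidylate synthesis and thymidine salvage rose as well. Tyms (chromosome 5, 30058202 to 30073617), thymidylate synthase, which methylates dUMP, was at 29, 14.5, 20.2 and 26.2 CPM with PBS and at 185, 174, 130.2, 149 and 186 CPM with IL-33. Tk1 (chromosome 11, 117815526 to 117826092), the cytosolic thymidine kinase, was at 7.97, 12.4, 10.5 and 14.6 CPM with PBS. It reached 120.4, 196, 75.1, 149 and 149.6 CPM with IL-33. Both sets of groups lay far apart, with log2 changes of 2.88 ± 0.22 (SE, edgeR adjusted p = 6.3e-05) for Tyms and 3.61 ± 0.31 (SE, edgeR adjusted p = 9.0e-05) for Tk1, the largest change among the members. Exons of Tk1 share 83 bases with Afmid on the other strand, and no source says that the library kit keeps strand. Dut, the phosphatase that turns dUTP into dUMP and so keeps uracil out of DNA, was at 31.7, 32.3, 73 and 45.4 CPM with PBS and at 179, 226, 123, 254 and 219.7 CPM with IL-33. Its log2 change was 2.13 ± 0.30 (SE, edgeR adjusted p = 0.0011).

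Dtymk, which phosphorylates thymidylate to the diphosphate, rose less. It was at 63.7, 40.4, 51.3 and 54.4 CPM with PBS and at 95.1, 101, 59.3, 95.7 and 103 CPM with IL-33. IL-33 replicate 3 lay below PBS replicate 1, so the groups overlapped, and the log2 change was 0.79 ± 0.19 (SE, edgeR adjusted p = 0.0154). The call ended with library size as the only scaling (adjusted p = 0.0581) and when a trend of the changes with exonic length and GC content was taken out (0.0683).

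Genes that handle deoxycytidine nucleotides rose too. Dck, deoxycytidine kinase, which starts the salvage of deoxycytidine, was at 15.9, 8.32, 5.83 and 8.87 CPM with PBS and at 44.6, 42.7, 31.7, 34.8 and 60.6 CPM with IL-33. Dctpp1, a pyrophosphatase that clears dCTP and its modified forms, was at 28.4, 26.6, 47.6 and 50.8 CPM with PBS and at 125, 179, 85, 122 and 124 CPM with IL-33. Groups did not overlap for either gene, with log2 changes of 2.14 ± 0.32 (SE, edgeR adjusted p = 0.0015) for Dck and 1.73 ± 0.27 (SE, edgeR adjusted p = 0.0018) for Dctpp1. With the length and GC trend removed the log2 change of Dctpp1, which has 676 exonic bases, was 1.10. Samhd1, which degrades dNTPs, had the highest CPM of the group in PBS, at 419, 450.3, 270.1 and 246 CPM, and was at 223, 142, 322, 185 and 223 CPM with IL-33. IL-33 replicate 3 was above PBS replicates 3 and 4. The log2 change was -0.66, with a 95% interval from -1.23 to -0.09, and missed the threshold (edgeR adjusted p = 0.0877). Samhd1 was called lower with DESeq2, limma voom, a stricter filter (5 CPM or more in 4 libraries) and without IL-33 replicate 3 (adjusted p 0.026 to 0.0438).

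**Figure D2:**
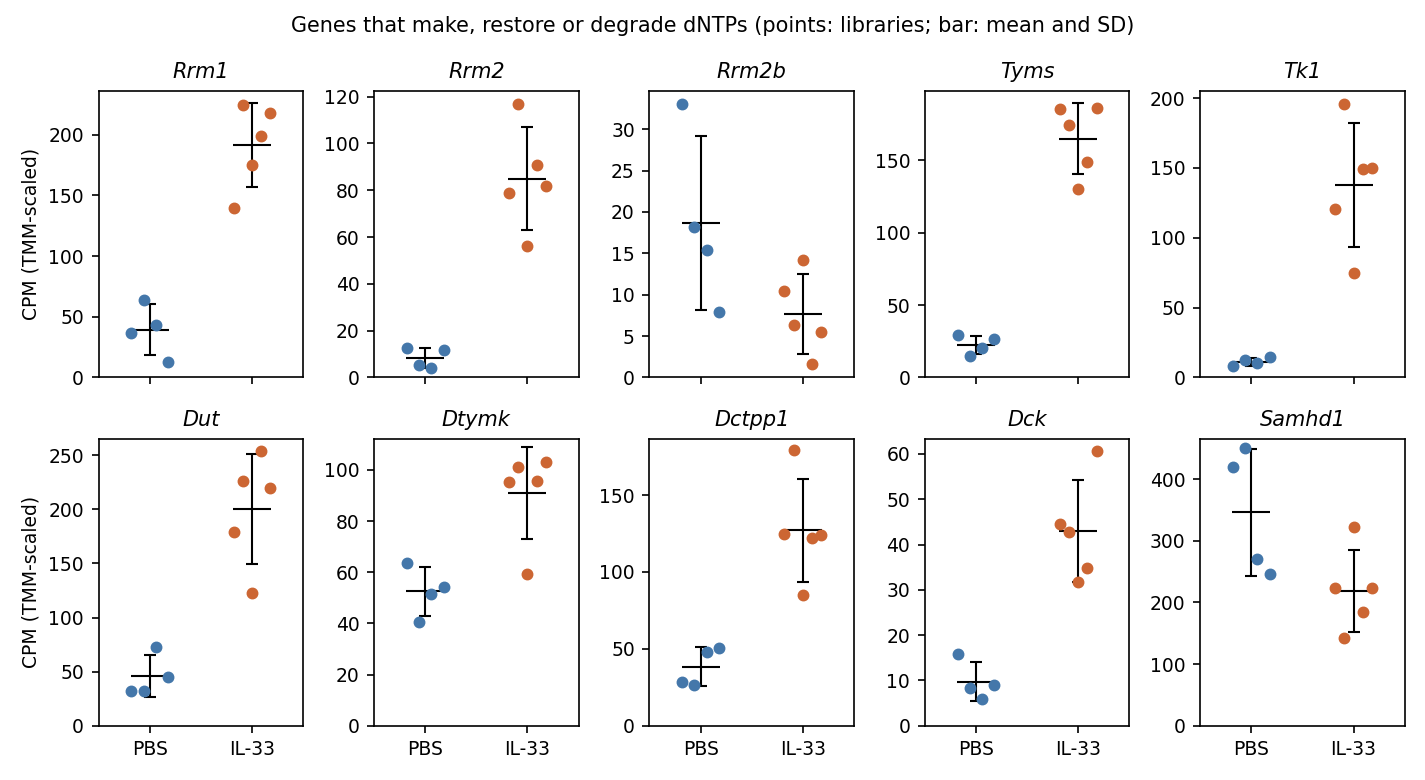
Each panel plots TMM-scaled CPM of 1 gene of dNTP supply, from 0, with points for the 4 PBS and 5 IL-33 libraries and bars for the mean and SD. For 7 of the 10 genes all IL-33 points lie above all PBS points, and Rrm2b and Samhd1 have lower means with IL-33.

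The mitochondrial counterparts of these kinases, taken from a list of 64 further nucleotide genes, went the other way. Tk2, the thymidine kinase of mitochondria, was at 56.1, 45.6, 53.8 and 46 CPM with PBS and at 17.4, 22.1, 23.2, 18.9 and 24.3 CPM with IL-33. Its log2 change was -1.25 ± 0.16 (SE, edgeR adjusted p = 5.8e-04), and that of Dguok, mitochondrial deoxyguanosine kinase, was -1.18 ± 0.18 (SE, edgeR adjusted p = 0.0016). Dguok ran from 76.1 to 98.4 CPM with PBS and from 29.8 to 49.2 CPM with IL-33. The log2 ratio of Tk1 to Tk2 counts ran from -2.81 to -1.65 in the PBS libraries and from 1.69 to 3.14 in the IL-33 libraries. That of Dck to Dguok ran from -4.07 to -2.25 and from -0.58 to 1.02. These ratios were chosen after the values were seen and were not tested.

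Along the pyrimidine route only Cmpk1, 1 of 5 genes, passed the test, 20% against 13.7% of all genes. Cmpk1, which phosphorylates UMP and CMP, was at 61.8, 66.1, 78.6 and 106 CPM with PBS and at 185, 128, 183, 189 and 142 CPM with IL-33. The groups did not overlap, and the log2 change was 1.08 ± 0.19 (SE, edgeR adjusted p = 0.0035). Cad, whose protein joins the activities that open the pathway, was at 12.2 ± 7.65 CPM (SD, n = 4) with PBS and 24.0 ± 8.05 CPM (SD, n = 5) with IL-33. Its interval of log2 change, -0.06 to 2.03, is wide (edgeR adjusted p = 0.156), and Cad was called higher with limma voom (log2 change 1.46, adjusted p = 0.0453). Dhodh, the dehydrogenase of the mitochondrial inner membrane, was at 46.7, 40.4, 48.2 and 25.5 CPM with PBS and at 26.5, 31.1, 26.3, 24.7 and 25.8 CPM with IL-33. PBS replicate 4 lay within the IL-33 range, and the log2 change was -0.58 (edgeR adjusted p = 0.0571). Without PBS replicate 4 Dhodh was called lower (log2 change -0.76, edgeR adjusted p = 0.007), and so it was with DESeq2 (adjusted p = 0.0111), DESeq2 size factors, limma voom and the stricter filter (0.0294 to 0.0418). Umps, which completes UMP, and Ctps, which makes CTP from UTP, had log2 changes of 0.33 (95% interval -0.27 to 0.93) and 0.48 (-0.37 to 1.32).

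In purine synthesis 1 of 12 genes was called, 8.33% against 13.7% of all genes. Paics (chromosome 5, 76951307 to 76967509), a bifunctional enzyme midway in the route to IMP, was at 100, 78.4, 86.8 and 63.3 CPM with PBS. With IL-33 it was at 154, 161, 128, 184 and 188 CPM, above every PBS library, and its change was 0.99 ± 0.16 on the log2 scale (SE, edgeR adjusted p = 0.0024). Ppat (chromosome 5, 76913249 to 76951578), the amidotransferase that commits PRPP to purines, starts from the other strand of the same place, and the exons of the pair share 272 bases. Ppat was at 23, 23.1, 23 and 15 CPM with PBS and at 23, 25.2, 16.5, 18.8 and 22.6 CPM with IL-33. Its log2 change was 0.01, with a 95% interval from -0.45 to 0.47, so a change as large as that of Paics lies outside it. Reads in the shared bases cannot be told apart without strand.

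The remaining steps to IMP lay near no change or slightly above. Adsl, adenylosuccinate lyase, had a log2 change of 0.46 (95% interval 0.08 to 0.84, edgeR adjusted p = 0.0757), and Atic, which closes the purine ring, one of 0.59 (0.01 to 1.17, edgeR adjusted p = 0.125). Adsl was called with the length and GC trend removed (adjusted p = 0.0415) and Atic without IL-33 replicate 3 (0.0433). Gart, a trifunctional enzyme of early steps, had a log2 change of -0.16 (-0.99 to 0.67) and Pfas, also of the early steps, one of -0.17 (-0.84 to 0.50). Prps1 and Prps2, which make the PRPP that feeds the pathway, had changes of 0.38 (-0.19 to 0.95) and -0.33 (-0.74 to 0.08).

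After IMP the route splits towards GMP and AMP. Impdh2, the main IMP dehydrogenase of dividing cells, was at 139.9, 144, 139 and 130.0 CPM with PBS and at 129, 146, 85.4, 128 and 136 CPM with IL-33. Its log2 change was -0.15, with a 95% interval from -0.48 to 0.18 (edgeR adjusted p = 0.501). Impdh1, the related gene, was lower in CPM and more variable, with a log2 change of 0.56 (-0.43 to 1.54). Gmps, which aminates XMP to GMP, had a log2 change of 0.01 (-0.58 to 0.61), and Adss, which starts the branch to AMP, one of 0.12 (-0.26 to 0.49). The related synthetase gene Adssl1, from the further list, averaged 77.7 ± 15.5 CPM with PBS (SD, n = 4) and 18.7 ± 5.54 CPM with IL-33 (SD, n = 5), and fell with a change of -2.05 ± 0.24 on the log2 scale (SE, edgeR adjusted p = 3.6e-04). The log2 ratio of Adss to Adssl1 counts ran from -0.63 to 0.02 with PBS and from 1.42 to 2.17 with IL-33, a ratio chosen after the values were seen and not tested.

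**Figure D3:**
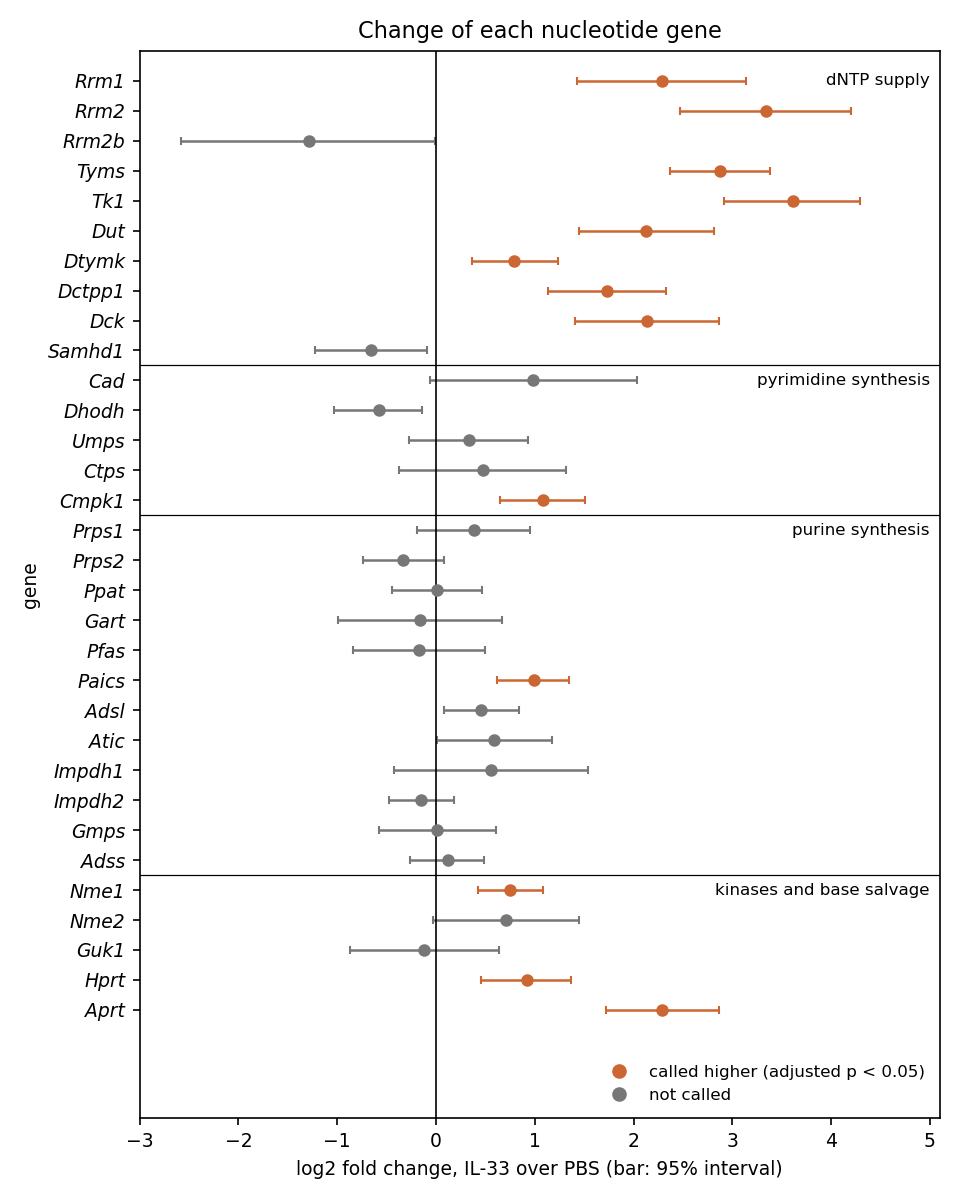
Points give the log2 fold change of IL-33 over PBS for each of the 32 genes in edgeR's fit, bars the 95% interval, and orange the 13 genes called higher. The dNTP genes reach 3.61 (Tk1), while the intervals of 9 of the 12 purine genes include 0.

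Of the salvage and kinase genes 3 of 5 were called higher, 60% against 13.7% of all genes. Aprt (chromosome 8, 122574635 to 122576909), which salvages adenine, was at 56, 52.5, 105 and 68.1 CPM with PBS and at 326, 461, 241, 371 and 322 CPM with IL-33. The groups were far apart, and the log2 change was 2.29 ± 0.26 (SE, edgeR adjusted p = 3.2e-04), or 4.88-fold. Hprt, which salvages hypoxanthine and guanine, was at 63.9, 79.1, 52.5 and 48.9 CPM with PBS and at 127, 98.4, 83.2, 147 and 121 CPM with IL-33. The change was 0.92 ± 0.20 (SE, edgeR adjusted p = 0.0097). The call of Hprt ended with library size as the only scaling (adjusted p = 0.0755) and with the length and GC trend removed (0.0503).

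Nme1, a kinase that turns nucleoside diphosphates into triphosphates, was at 119, 110.2, 133 and 139 CPM with PBS and at 202, 260.2, 161, 230.0 and 199.8 CPM with IL-33. The change of Nme1 was 0.75 ± 0.15 on the log2 scale (SE, edgeR adjusted p = 0.0054). Nme2, its close relative, was at 8.94 ± 3.84 CPM (SD, n = 4) and 14.6 ± 3.97 CPM (SD, n = 5), with a log2 change of 0.71 (95% interval -0.03 to 1.45), and was called only without PBS replicate 4 (log2 change 1.04, edgeR adjusted p = 0.0339). The 2 genes each share exon bases with the joint gene model Gm20390, so the split of reads between them is uncertain. Their log2 ratio averaged 3.88 ± 0.43 in the PBS libraries (SD, n = 4) and 3.88 ± 0.19 after IL-33 (SD, n = 5; exact permutation p = 0.984, adjusted p = 0.984 over 4 pairs). Guk1, guanylate kinase, ran from 36.9 to 108 CPM with PBS and from 51.2 to 75.5 CPM with IL-33, with a log2 change of -0.12 (-0.87 to 0.64).

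Of the other related pairs, neither ratio passed the test. The log2 ratio of Impdh2 to Impdh1 averaged 3.20 ± 0.53 in the PBS libraries (SD, n = 4) and 2.62 ± 0.71 after IL-33 (SD, n = 5; exact permutation p = 0.222, adjusted p = 0.296 over 4 pairs). That of Prps2 to Prps1 was -0.91 ± 0.68 (SD, n = 4) and -1.62 ± 0.33 (SD, n = 5) (exact permutation p = 0.0794, adjusted p = 0.159 over 4 pairs).

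**Figure D4:**
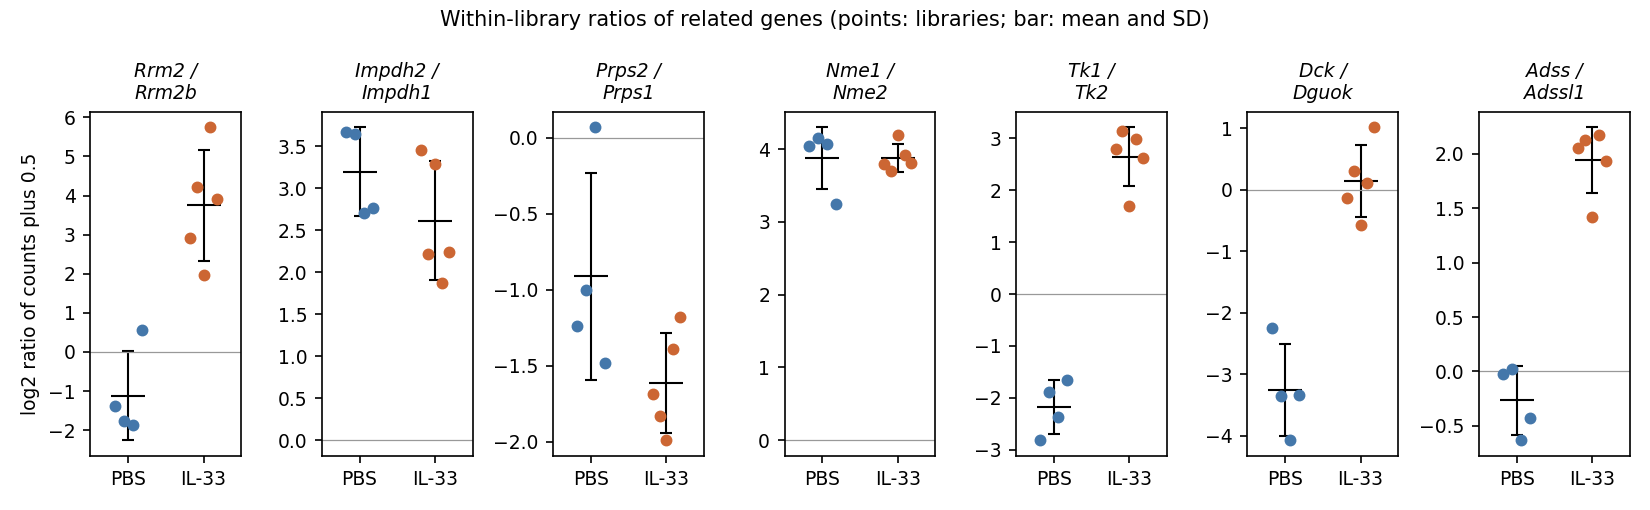
Each panel plots the log2 ratio of counts plus 0.5 of 2 related genes within each library, with points for libraries and bars for the mean and SD, each panel on its own axis. Groups lie apart for Rrm2 over Rrm2b, Tk1 over Tk2, Dck over Dguok and Adss over Adssl1, and overlap for the other 3 pairs.

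Divided by exonic length, the order of the members changed between the groups. Per kilobase of merged exons, Dctpp1 (56.7 ± 18.6 CPM per kilobase, SD, n = 4), Hprt (47.4 ± 10.5), Impdh2 (44.9 ± 1.89) and Aprt (43.6 ± 14.9) were highest with PBS, and these neighbours differed by less than their spread. With IL-33 Aprt (213 ± 49.7 CPM per kilobase, SD, n = 5) and Dctpp1 (188 ± 49.7) led, again within their spread, followed by Hprt (89.5 ± 19.4) and Dut (83.1 ± 21.2). Rrm2 moved from rank 28 of 32 with PBS to rank 12 with IL-33 and Tk1 from rank 30 to rank 14, while Samhd1 moved from 6 to 15 and Dhodh from 20 to 30. Rrm2b and Cad held ranks 31 and 32 with PBS and 32 and 31 with IL-33.

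The further list of 64 nucleotide genes holds the other kinases, isoforms, degrading enzymes, phosphatases and transporters of the pathway. Of these 58 were in the count table and 46 were tested, of which 10 (21.7%, against 13.7% of all genes) were called higher and 3 (6.52%, against 11.6%) lower, with a median log2 change of -0.04. The 3 lower genes were Adssl1, Tk2 and Dguok. Among the higher genes was Shmt1, a serine hydroxymethyltransferase of the folate cycle that serves thymidylate synthesis, which rose by 3.49 ± 0.92 on the log2 scale (SE, edgeR adjusted p = 0.0217). Mthfd1, of the same cycle, had a log2 change of -0.25 (edgeR adjusted p = 0.639). Uck1, a uridine and cytidine kinase, rose by 0.95 and Slc29a1, an equilibrative nucleoside transporter, by 1.03 on the log2 scale. Ak6, an adenylate kinase gene, rose by 1.41 on the log2 scale. With IL-33 replicates 1, 2 and 3 left out 2 of these genes were called higher, and without IL-33 replicate 2 alone 6 were.

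Genes of the cell cycle and markers of other cell types differed with treatment beside the members. All 17 listed cell cycle genes were called higher (100%, against 13.7% of all genes tested). Their summed level was 332 to 441 CPM with PBS and 2228 to 3053 CPM with IL-33. The part of these genes in the members' changes was not tested. The 6 erythroid markers summed to 168 to 323 CPM with PBS and 369 to 3568 CPM with IL-33, with Alas2 at 0 in all PBS libraries. The 2 mast cell and basophil markers in the table, Cpa3 and Fcer1a, of 6 listed, summed to 15.4 to 45.8 CPM with PBS and 94.2 to 357 CPM with IL-33. The 6 B cell markers summed to 423 to 577 CPM with PBS and 177 to 439 CPM with IL-33, where Ighm was called lower (log2 change -1.61, edgeR adjusted p = 0.0048) and Cd79b higher (2.18, 0.0146). The endothelial markers summed to 40.3 to 212 CPM with PBS and 18.9 to 59.5 CPM with IL-33, with Kdr called lower (-6.01, edgeR adjusted p = 0.0177). The duct markers summed to 14.6 to 322 CPM with PBS and 2.44 to 47 CPM with IL-33. The fibroblast markers summed to 3.3 to 29 CPM and 0.387 to 10.1 CPM. Only Epcam of the duct list (-4.43, edgeR adjusted p = 0.0095) and Col1a2 of the fibroblast list (-4.41, 0.0193) were called, both lower. The part of these markers in the members' changes was not tested. With IL-33 replicates 1, 2 and 3, the libraries highest in erythroid markers, left out, the same 13 members were called higher. The same 13 were also called higher when PBS replicate 4 was left out, with Nme2 added, and when any other single library was left out, with Atic added without IL-33 replicate 3.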

How the data were processed

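The members and gene lists were chosen with earlier results of these data known. Counts by Ensembl gene, all whole numbers, and a normalized signal are the tables the authors deposited. The submitters' processing notes list STAR 2.7.7a, Salmon 1.6.0, Trimmomatic 0.39, FastQC 0.11.9, DESeq2 and Picard, and the build GRCm38.p6. They do not say which tool did what, which annotation served, whether genes were filtered or whether the counts are rounded estimates. In the deposited signal each library's counts are scaled by a single factor: 100% of values gave whole reads within 0.05, and edgeR on them called the same 3633 genes. Libraries were made with a low-input kit from 5 to 15 ng of RNA and read as pairs of 150 nt, per the labels' protocols.

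Symbols matched 20571 genes (99.2%). Coordinates and exonic lengths come from GENCODE M21 (GRCm38), promoters from RefSeq (29 of 32 members matched).

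The main test was edgeR 4.0.16 under R 4.3.3 (TMM, filterByExpr at a minimum count of 10, quasi-likelihood F-test with robust fitting, two-sided, Benjamini-Hochberg over 14405 genes, threshold 0.05). For pairs of related genes an exact permutation test was run on within-library log2 ratios of counts plus 0.5 (SciPy 1.17.1). On simulated counts for this comparison, over 13862 genes, edgeR found 20.2% of 99 genes set to a 2-fold change and 49.5% of 93 set to a 4-fold change, and made 1 false call. Replicates of a group differed beyond sampling noise in all pairs (lowest chi-square per degree of freedom 52.6). Alternatives were another scaling (DESeq2 size factors or library size), no filter or a filter of 5 CPM in 4 libraries, the replicate number as a block, acinar genes left out, limma 3.58.1 voom, DESeq2 1.42.0, limma-trend on log2 of the signal plus 1, a threshold of 0.01, removal of the length and GC trend, and leaving out libraries. The test on recovered reads was added after seeing the data.

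All members are named. Of the further nucleotide genes the rule names up to 12 called genes with the smallest adjusted p and any called against the direction of most of their list, and of E2F genes up to 3. The rule on promoters asked for members with an E2F core. The 2 that hold one are not printed, since 1 window lies in annotated transcript leaders and the other holds the core after the start. The CCAAT genes, and the uncalled genes Mthfd1 and E2f1 to E2f6, were chosen after their values were seen. Some genes that the rule names are not reported here.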

Additional observations from a re-analysis of the deposited data

Results flagged for a closer look

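In 72 groups of 4 or 5 libraries, 64 of them a member's CPM and 8 a ratio of related genes, 4 had a library far from the others. Chance flags about 1 in 20 groups. Dtymk was at 59.3 CPM in IL-33 replicate 3, against 95.1 to 103 CPM in the other IL-33 libraries. Dhodh was at 31.1 CPM in IL-33 replicate 2, against 24.7 to 26.5 CPM in the others. Ppat was at 15 CPM in PBS replicate 4, against 23 to 23.1 CPM in the others. The log2 ratio of Nme1 to Nme2 was 3.25 in PBS replicate 4, against 4.04 to 4.16 in the others. PBS replicate 4 is the library with 38.1% of its counts in acinar genes, and the part of these in either value was not tested.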

How the results depend on the processing

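Over 23 alternatives 8 of the 13 members called higher kept their call in each, namely Rrm1, Rrm2, Tyms, Tk1, Dctpp1, Dck, Cmpk1 and Aprt, and 6 of the 19 others were called in some. Same-numbered libraries had correlations of deviations of -0.0283, -0.048, -0.0225 and 0.069, and differently numbered ones of -0.177 to 0.177. These few values show no sign that replicate numbers pair the libraries, but do not settle it. With the replicate block 1457 genes were called, 791 higher and 666 lower, with 10 members and 3 further nucleotide genes higher, and Dtymk, Hprt and Nme1 lost their call. With the block and the length and GC trend removed together, 821 genes were called, 430 higher and 391 lower, with 8 members (Dut and Paics also lost) and 1 further gene higher. Under the block the log2 ratio of Rrm2 to Rrm2b differed by 4.83 (exact sign-flip p = 0.125, the smallest 4 pairs can give). Library size alone gave 1976 calls, 644 of them lower, so that 67.4% were higher in place of 54.1%, and the median of all genes moved from -0.05 to 0.08. A threshold of 0.01 gave 1786 calls, 1019 higher and 767 lower, with 4 further genes higher. Without IL-33 replicates 1 to 3 there were 1396 calls, 732 higher and 664 lower, with 2 further genes higher. DESeq2 called 2588 genes lower. Members called lower numbered 1 with DESeq2 size factors and 2 each with the filter of 5 CPM, limma voom and DESeq2. Further genes called lower numbered 5 with limma voom and with DESeq2. Leaving out 1 library in turn gave 0 to 1 members lower, and 6 to 12 further genes higher. Changes followed gene length, with a median log2 change of 0.40 in the shortest of 5 equal groups and -0.47 in the longest. In simulation 20.2% of 2-fold changes were recovered. Only 99 genes were set to a 2-fold and 93 to a 4-fold change there, drawn at random from genes of all levels. That share is therefore not the rate of recovery for the members. A missed test still does not show that a member did not differ, and the 95% intervals give the sizes left.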

Other observations

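Transcripts of enzymes that keep the nucleotide pool clean rose in part. Itpa, which removes inosine triphosphate, averaged 16 ± 7.39 CPM with PBS (SD, n = 4) and 49.2 ± 5.06 CPM with IL-33 (SD, n = 5), and rose by 1.62 ± 0.29 on the log2 scale (SE, edgeR adjusted p = 0.0036). Nudt1, which removes oxidised purine triphosphates, rose by 0.93 and Nt5c3b, a nucleotidase, by 0.95 on the log2 scale. Of the 11 tested genes of phosphatases and pool cleaning 3 (27.3%) were called higher and 0 lower, against 13.7% and 11.6% of all genes tested.

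Of 8 E2F genes, a family of factors that drive or restrain S phase genes, 2 (25%) were called higher and 0 lower. Of all genes tested 13.7% were called higher and 11.6% lower. E2f8 and E2f7, which repress other E2F targets, ran from 0 to 0.542 and from 0 to 0.861 CPM with PBS and from 9.06 to 20.8 and from 5.23 to 9.02 CPM with IL-33 (edgeR adjusted p = 0.0024 and 0.0203). E2f1 had a log2 change of 1.43 (edgeR adjusted p = 0.071) and E2f4 one of 0.03 (edgeR adjusted p = 0.944). E2f2 ran from 0 to 15.6 CPM with PBS and from 22.2 to 51.7 CPM with IL-33. Its log2 change of 3.13 was not called (edgeR adjusted p = 0.0903). E2f3, E2f5 and E2f6, also not called, had log2 changes of 0.16, -1.14 and -0.66.

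Among the IL-33 libraries, replicate 3 was the lowest for 11 of the 13 members called higher, all except Rrm1 and Cmpk1. How often replicate 3 was the lowest over all genes was not counted, so this may not be particular to the members. This library also had the lowest sum of cell cycle genes, 2228 CPM, and the highest sums of erythroid (3568 CPM) and of mast cell and basophil markers (357 CPM). What these values share was not tested.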
